A study of Mus musculus with 8 samples.

Results

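Calcitonin gene-related peptide (CGRP), its receptor and the cyclic AMP response were followed through 9 genes in invariant natural killer T (iNKT) cells of mouse skin and spleen. The 9 genes, of 22549 in the table of expected counts, are Calca, Ramp1, Calcrl, Crem, Pde4b, Pde4d, Ptger4, Adora2a and Prkar1a. They were picked by name with their skin and spleen counts already known, so their levels in the tissues are given as a description and no p-value is attached to them. RNA came from 4 skin and 4 spleen libraries, all of CCR10+/EGFP mice, in which 1 Ccr10 allele carries EGFP, and both groups share this genotype. No treatment is named, and the sources used here do not state age, sex, sorting gates or whether a library came from 1 or several animals. Replicates may therefore be technical, and p-values measure only the spread between these libraries. The iNKT cell is a T cell with a semi-invariant receptor for lipids presented by CD1d, and the labels' question is how its transcriptome in skin compares with that in spleen.

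CGRP is a peptide that sensory nerve endings of the skin release, and it acts on lymphocytes as well as on blood vessels. Its receptor is a pair of proteins, the G protein-coupled receptor encoded by Calcrl and the accessory protein encoded by Ramp1. Receptors of this class act through the stimulatory G protein Gs, which switches on adenylyl cyclase. The cyclic AMP made then binds the regulatory subunits of protein kinase A and frees its catalytic subunits. These phosphorylate CREB family factors, which bind the cyclic AMP response element. Phosphodiesterases break cyclic AMP down, and a short repressor form made from an internal promoter of Crem limits transcription. In T cells cyclic AMP is known for restraining receptor signalling.

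Totals were 7191131 to 9791973 expected counts per library, so a count of 0 allows up to 3 counts, or 0.292 to 0.454 CPM (counts scaled to a common library size after TMM normalization), for counting error alone. Skin libraries held a count for 5302 to 6012 genes and spleen libraries for 6415 to 10094 (two-sided exact permutation p = 0.0286, n = 4 each, the smallest that 4 against 4 can give). Zeros were common at low levels in skin. Among genes averaging 50 to 100 CPM over the remaining 3 skin libraries, 29.6% to 35.9% had no count in the library left aside. The share of such zeros did not follow the library totals: at 10 to 20 CPM it was 63.2% in skin replicate 2, with 9686050 counts, and 10.2% in spleen replicate 4, with 7191131. In skin it was 12.9% to 17.7% at 100 to 200 CPM and 2.17% to 5.35% at 200 to 500 CPM. All 12 T cell and iNKT markers had a count, with sums of 7098 to 8763 CPM in skin and 6128 to 8858 CPM in spleen. Single markers differed: of the 12, edgeR called Cd44, an activation and memory marker, higher in skin and Cd3d and Klrb1c lower. Cd44 stood at 638 to 1117 CPM in skin against 174 to 286 CPM in spleen (adjusted p = 0.00808). The CD3 chain gene Cd3d stood at 384 to 583 against 857 to 1389.7 CPM (adjusted p = 0.025). Klrb1c, which encodes the marker NK1.1, had no count in skin and 53.1 to 392 CPM in spleen (adjusted p = 0.0187). With no count in skin it could only come out lower. Zbtb16, the transcription factor that defines the lineage, had a count in all 8 libraries. Summed keratinocyte markers were 184 to 943 CPM in skin and 0 to 29.5 CPM in spleen (exact permutation test, two-sided, p = 0.0286, n = 4 each), with Lor, Trp63, Dsp and Dsg3 at 0 everywhere. Spleen replicate 4 stood apart from the other spleen libraries in stimulus-induced genes, described below. The part of keratinocyte RNA in the differences below was not tested. Markers of mast cells had no count, fibroblast markers summed to 0 to 31.9 CPM in skin and 0 in spleen, and neutrophil markers to 0 in skin and 0 to 41.0 CPM in spleen. B cell markers summed to 0 in skin against 31.5 to 166 CPM in spleen, and erythroid markers to 0 to 2.12 against 111 to 274 CPM. Sums for macrophages, monocytes and dendritic cells were 68.9 to 401 CPM in skin and 62.3 to 382 CPM in spleen, for Schwann cells 20.8 to 468 and 176 to 528 CPM, and for melanocytes 24.6 to 43.3 and 28.2 to 95.3 CPM. Tissue and whatever was done to cells of 1 tissue alone cannot be told apart.

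Of the 9 genes, Crem and Calca differed most in fold between the tissues, both high in skin and at or near 0 in spleen. Ramp1 went the other way, at 415 ± 85.04 CPM in spleen against 45.3 ± 33.6 CPM in skin (SD, n = 4 each, as for every CPM given with ± unless stated). Prkar1a was 1.99-fold higher in skin. In bulk RNA, fewer cells expressing a gene and less of its RNA per cell cannot be told apart. Adora2a had no count in skin, while Calcrl, Pde4b, Pde4d and Ptger4 overlapped between the tissues. Of the 9 genes, 7 passed the filter on low counts, and Calcrl and Adora2a did not. The fit over all genes called 3 of the 7 higher in skin, Crem, Calca and Prkar1a, where it called 1.85% of the 6920 genes tested higher, 3.58% lower and 5.43% in either direction. It called 0 of the 7 lower. At an unadjusted p under 0.05 edgeR's quasi-likelihood test counted 1 lower, and DESeq2 and limma-voom called 0 lower. Over all 6920 genes tested DESeq2 called 295 higher and 447 lower, and limma-voom 209 and 519. Counts by these tools in the lists below stand beside the same totals. No share over all genes is given for the unadjusted counts, so nothing is read from them here or below. The 2 tissues were free of overlap in 3 of the 7 with skin above and in 1 with skin below, beside 6.11% and 13.4% of all genes tested (19.5% for either). Nothing is read from these counts, because the genes were chosen on this contrast.

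**Figure D1:**
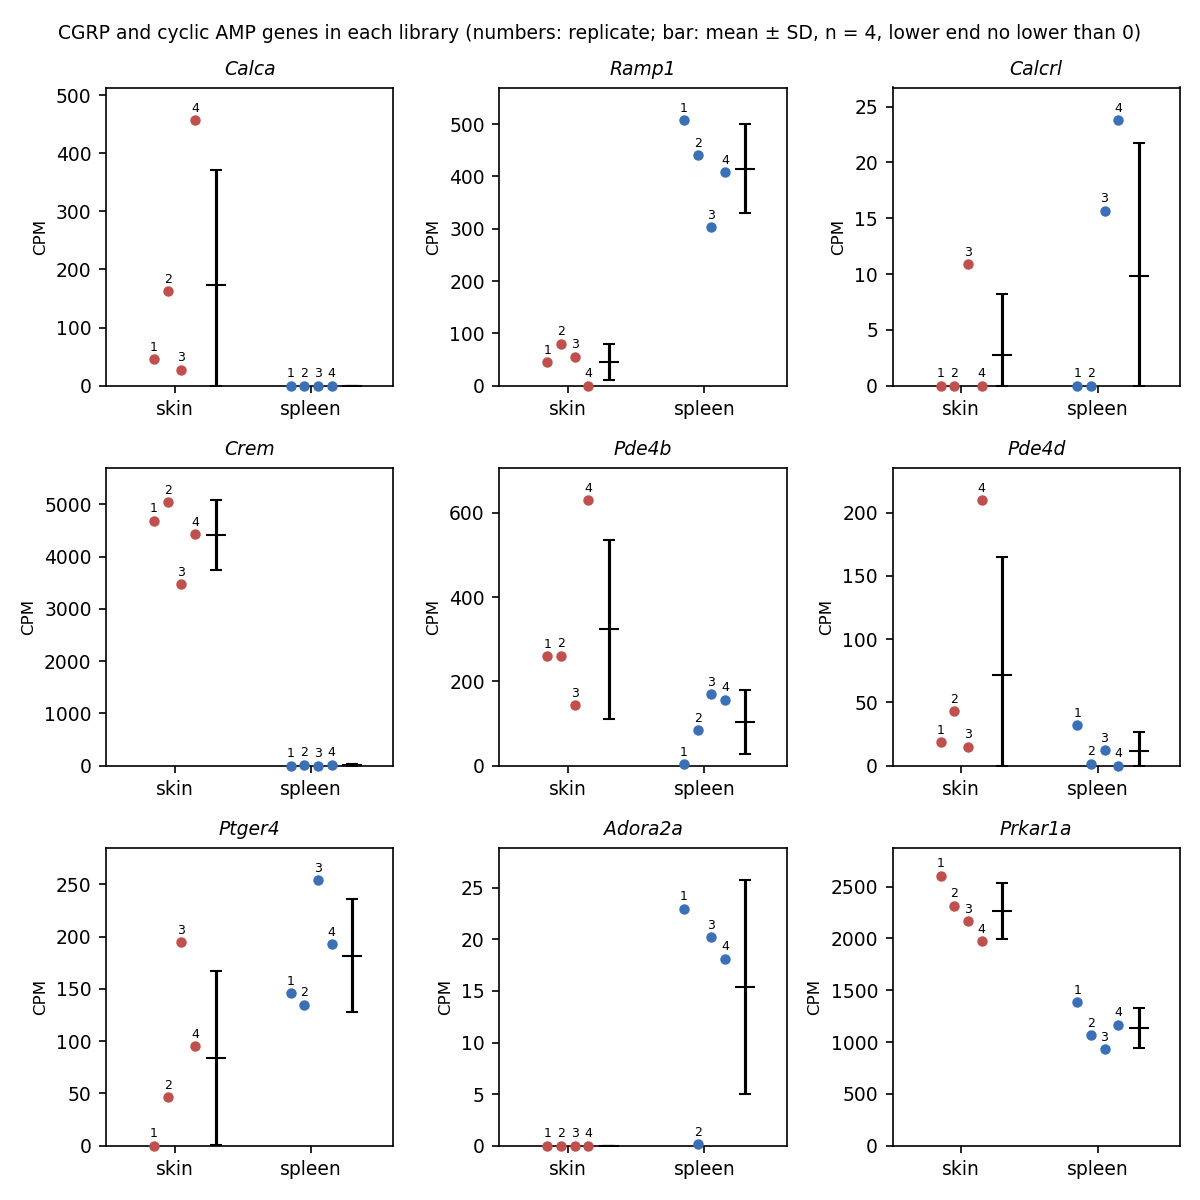
Level of each of the 9 genes in CPM (y axis, linear from 0) in the 4 skin and 4 spleen libraries (x axis). Points are libraries with their replicate number, and bars are mean ± SD (n = 4), drawn no lower than 0. All skin values of Crem lie between 3474 and 5040 CPM and all its spleen values at or below 22.0 CPM, while Ramp1 lies at 303 to 507 CPM in spleen and 0 to 80.4 CPM in skin.

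Calca encodes both calcitonin and CGRP by alternative splicing, and counts per gene do not tell the 2 products apart. It stood at 46.0, 162, 27.8 and 457 CPM in skin replicates 1 to 4 and had no count in any spleen library. Every skin value lay above every spleen value, but the skin libraries themselves ranged 16.4-fold, with replicate 4 the highest. The mean of 173 ± 198 CPM (SD, n = 4) was 459.5-fold the spleen floor of 3 counts per library, which allows for counting error alone. Without skin replicate 4 the skin mean was 78.7 ± 72.9 CPM (n = 3). The call of Calca was lost in each of the 8 fits that left out 1 library, with fitted log2 fold changes of 12.31 to 13.78 beside 13.44 in the full fit. With no count in spleen these could only be above 0, and they depend on the prior count. Of 1108 genes with a skin mean of 100 to 200 CPM, 1.08% had no count in any spleen library. The paralog Calcb, which encodes the other form of CGRP, had no count in any of the 8 libraries.

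Cells other than lymphocytes that are known to express Calca in skin include sensory neurons, through their axons, and Merkel cells, the touch receptor cells of the epidermis. All 10 sensory neuron markers, among them Scn10a, Trpv1, Tac1 and Snap25, had no count in any library, and so had the 7 Merkel cell markers in the table, among them Krt20, Krt8 and Atoh1. At 20 to 50 CPM, 45.4% to 54.0% of genes had no count in a skin library. The part of neurons or Merkel cells in the Calca values was not tested. The keratinocyte sum was 678, 184, 943 and 197 CPM in skin replicates 1 to 4, and its part in the Calca values was not tested. Markers of group 2 innate lymphoid cells, another cell that can make CGRP, summed to 0 to 12.1 CPM in skin and 17.1 to 145 CPM in spleen, with Il5 and Il13 at 0 everywhere. Cd163l1, on the gamma delta T cell list, of which 2 of 7 symbols were in the table, stood at 159, 30.4, 103 and 286 CPM in skin replicates 1 to 4. Its list summed to 30.4 to 286 CPM in skin and 0 to 70.2 CPM in spleen, and the part of such cells in the Calca values was not tested.

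**Figure D2:**
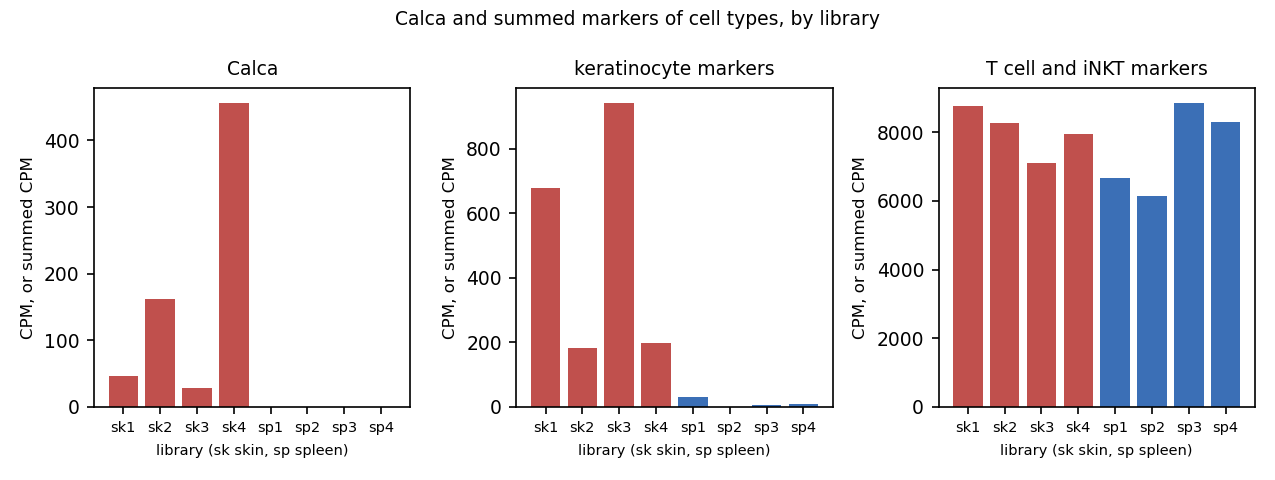
Calca in CPM and the summed CPM of 12 keratinocyte markers and 12 T cell and iNKT markers (y axes, linear from 0) in each library (x axis; sk skin, sp spleen, with the replicate number). Calca is highest in skin replicate 4 at 457 CPM, keratinocyte markers are highest in skin replicate 3 at 943 CPM, and T cell markers lie between 6128 and 8858 CPM throughout.

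The promoter of Calca is shown because the gene is known to respond to cyclic AMP. In the RefSeq window of mouse build GRCm38.p6 (250 bases before to 50 after the start site), the core letters TGACG of the cyclic AMP response element begin 65 bases before the start. They are in capitals in this stretch, chr7:114636368-114636472, minus strand.
Calca: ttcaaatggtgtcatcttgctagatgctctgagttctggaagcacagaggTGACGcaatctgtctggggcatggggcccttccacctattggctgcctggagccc
This build is not the mm9 named for the count table, and the window was read for sequence only. On either strand, TGACG was found in 20.8% of 32851 such windows of all genes, and the full element TGACGTCA, which contains it, in 1.79%. The match describes the letters and not a bound site.

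Ramp1, the accessory protein that turns the calcitonin-like receptor into a CGRP receptor, stood at 507, 440.4, 303 and 409 CPM in spleen replicates 1 to 4. In skin replicates 1 to 4 it stood at 45.6, 80.4, 55.4 and 0 CPM. Skin and spleen values did not overlap, and the means differed 9.15-fold, the log2 fold change of skin over spleen being -3.19 ± 1.34 (SE). The 0 in skin replicate 4 fell at a level where 29.6% to 35.9% of genes had no count in a skin library. Without that library the skin mean was 60.5 ± 18.0 CPM (n = 3), and Ramp1 was then called lower. It was not called with all 8 libraries or in the fits without another one.

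Calcrl, the receptor protein itself, was close to the limit of detection in both tissues. Skin replicate 3 had 10.9 CPM and skin replicates 1, 2 and 4 had no count. In spleen it stood at 15.7 CPM in replicate 3, 23.8 CPM in replicate 4 and 0 in replicates 1 and 2. Values overlapped, and no test was made. Endothelium is a main site of this receptor, and 7 of 8 endothelial markers, among them Cdh5, Kdr and Tek, had no count anywhere. The other, Pecam1, stood at 0 to 77.0 CPM in skin and 0 to 57.4 CPM in spleen.

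Other partners of the receptor were taken from a list of the family. Ramp3, which with the same receptor binds adrenomedullin, was higher in skin. It stood at 359, 829, 215 and 720.0 CPM in skin replicates 1 to 4 and at 0, 0, 0 and 4.01 CPM in spleen replicates 1 to 4. The tissues did not overlap, and the fitted log2 fold change was 9.06 with an SE of 2.05 and an adjusted p of 0.0473 in edgeR. The direction was opposite to that of Ramp1, which pairs with the same receptor. In the fits without 1 library its adjusted p ran from 0.00426 to 0.137 and its log2 fold change from 8.62 to 15.09. Only the fit without spleen replicate 4 called it. That library holds the only spleen counts of Ramp3, 27 in all, and without it the fitted fold is set by the prior count and is no measure of size. Ramp2 and the calcitonin receptor Calcr had no count in any library. Crcp, which encodes an intracellular component of CGRP receptor signalling, had 113 CPM in skin replicate 1, no count in skin replicates 2 to 4 and 0 to 76.8 CPM in spleen. Of 12 further peptide genes, among them Adm, Vip, Adcyap1 and Tac1, 11 had no count anywhere, and Pomc had 20.7 CPM in spleen replicate 2 and 1.93 CPM in spleen replicate 4.

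**Figure D3:**
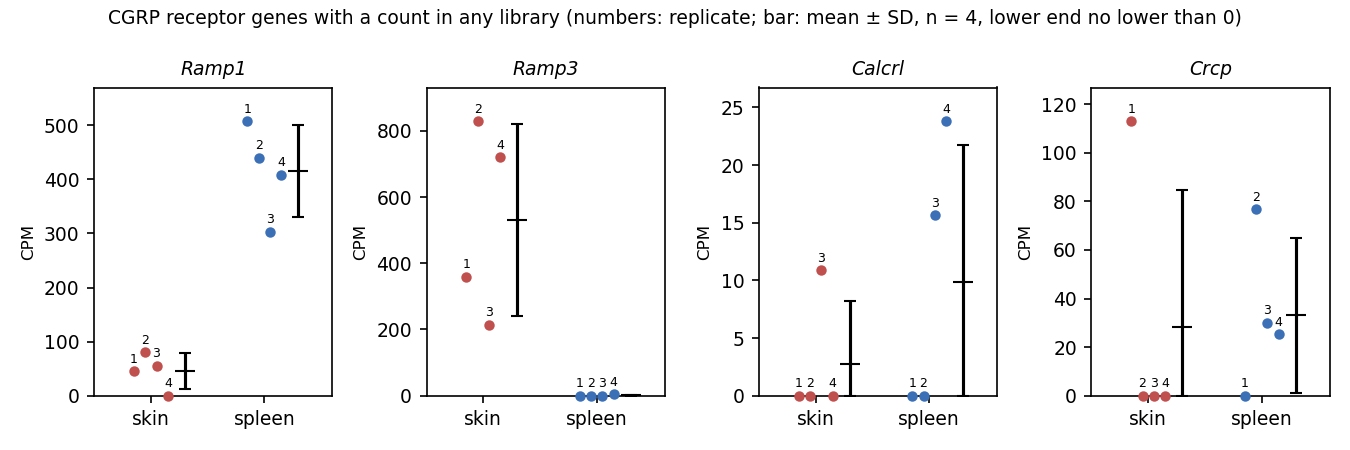
Level in CPM (y axis, linear from 0) of the 4 genes of the CGRP receptor family with a count in any library, in 4 skin and 4 spleen libraries (x axis). Points are libraries with their replicate number, and bars are mean ± SD (n = 4), drawn no lower than 0. Ramp3 lies at 215 to 829 CPM in skin and at or below 4.01 CPM in spleen, the reverse of the order of Ramp1.

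The receptors for prostaglandin E and adenosine, which also act through Gs, had lower means in skin than in spleen. Ptger4, a prostaglandin E receptor, stood at 0, 46.2, 194 and 95.3 CPM in skin replicates 1 to 4. In spleen it stood at 146, 135, 254 and 193 CPM. The values overlapped, and its log2 fold change was -1.11 ± 1.47 (SE). The 0 in skin replicate 1 fell where 12.9% to 17.7% of genes had no count. Adora2a, the adenosine receptor known for damping lymphocyte activation, had no count in skin and 23.0, 0.114, 20.2 and 18.1 CPM in spleen replicates 1 to 4, the value of replicate 2 being 1 count. Of 1188 genes with a spleen mean of 10 to 20 CPM, 34.9% likewise had no count in any skin library. The zeros of Adora2a in skin therefore set no lower bound on the fold.

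Of the 17 other Gs-coupled receptors listed, 7 had a count and 3 were tested. None of the 3 was called, beside 5.43% of all genes tested. DESeq2 and limma-voom called 0 of them, and 1 was higher in edgeR at an unadjusted p under 0.05. The proton-sensing receptor Gpr65 stood at 101 to 483 CPM in skin and 81.7 to 186 CPM in spleen. The prostacyclin receptor Ptgir stood at 0 to 86.6 CPM in skin and 0 to 15.5 CPM in spleen. Both overlapped between the tissues. In the other direction, Gpr174, a lysophosphatidylserine receptor, had no count in skin and 0.877, 118, 26.4 and 57.4 CPM in spleen replicates 1 to 4, and did not pass the filter. Ptger2, another prostaglandin E receptor, had no count in skin and 0 to 123 CPM in spleen and was not tested either. Of genes with a spleen mean of 50 to 100 CPM, as Gpr174, 9.45% had no count in any skin library. At 20 to 50 CPM, the level of Ptger2, this share was 20.1%. Vipr1 and Hrh2, also without a count in skin, reached 7.88 and 12.8 CPM in spleen. The VIP receptor Vipr2 and the adenosine receptor Adora2b were among the 10 with no count in any library.

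Downstream of the receptors, several subunits of the G proteins stood higher in skin. Gnas, the alpha subunit of Gs, was called higher at 1723 ± 572 against 796 ± 96.3 CPM (1.11 ± 0.26 as log2 fold change with SE; adjusted p = 0.0473 in edgeR). Its skin values were 2167, 2179, 1566 and 981 CPM, all above the spleen range of 705 to 911 CPM. Gnai2, the alpha subunit of the inhibitory protein Gi, was also higher, at 1593 ± 335 against 777 ± 85.6 CPM (1.04 ± 0.20 as log2 fold change with SE; adjusted p = 0.0352 in edgeR). Subunits of both the stimulatory and the inhibitory protein thus rose. In the fits without 1 library their adjusted p ran from 0.0133 to 0.137 for Gnas and from 0.0087 to 0.115 for Gnai2, and only the fit without skin replicate 4 called either. Gnai3, Gnb1 and Gnb2 did not overlap between the tissues and were not called (809.8 ± 249, 566 ± 135 and 273 ± 136 CPM in skin; 346 ± 106, 257 ± 48.5 and 107 ± 53.6 CPM in spleen). Gnal, another stimulatory alpha subunit, stood at 0 to 60.1 CPM in skin and 60.9 to 214 CPM in spleen and was not called. Of the 9 genes of this list tested, 2 were called higher and 0 lower, beside 1.85% and 3.58% of all genes tested. The tissues did not overlap in 5 with skin above and in 2 with skin below (Gnal and Adcy7), beside 6.11% and 13.4%. The median log2 fold change of the 9 was 1.11, beside -0.29 over all genes tested. DESeq2 and limma-voom each called 4 higher and 0 lower. Over all 6920 genes tested DESeq2 called 295 higher and 447 lower, and limma-voom 209 and 519. In edgeR 5 were higher and 0 lower at an unadjusted p under 0.05, with no share over all genes given.

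Adenylyl cyclase, the enzyme that makes cyclic AMP, was represented by Adcy7 and Adcy3 among 10 listed genes. Adcy7 stood at 0, 0, 19.98 and 116 CPM in skin replicates 1 to 4 and at 245, 519.95, 249.98 and 256 CPM in spleen. The tissues did not overlap, in the direction opposite to that of the G proteins, and the difference was not called (-3.23 ± 1.97 as log2 fold change with SE; adjusted p = 0.712 in edgeR). Adcy3 had a count in 1 skin and 3 spleen libraries.

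Prkar1a, the type I regulatory subunit that holds protein kinase A inactive until cyclic AMP binds, had the smallest spread of the 9 genes. It stood at 2605, 2316, 2168 and 1972 CPM in skin replicates 1 to 4 and at 1386, 1066, 930.4 and 1168 CPM in spleen replicates 1 to 4. The lowest skin library exceeded the highest spleen library, and the log2 fold change was 0.99 ± 0.16 (SE). The call was lost without skin replicates 1, 2 or 3 or spleen replicates 2, 3 or 4, while the log2 fold change stayed at 0.89 to 1.10 in all 8 fits without 1 library. Its expected counts were not whole in any of the 8 libraries, as RSEM gives where it divides reads between genes. The same held for Crem in 5 of the 7 libraries with a count and for Calca in 2 of 4. The other subunits of the kinase did not follow it. Prkacb, a catalytic subunit, stood at 0, 76.1, 0 and 97.3 CPM in skin and 134 to 264 CPM in spleen without overlap and was not called. Prkaca overlapped at 0 to 40.5 CPM in skin and 14.96 to 65.1 CPM in spleen, as did Prkar2a at 0 to 61.9 and 0 to 35.5 CPM. These 3 were the tested genes of the list. None was called by edgeR, beside 5.43% of all genes tested, or by DESeq2 or limma-voom, and 0 had an unadjusted p under 0.05. Their median log2 fold change was -0.91.

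The stretch of Prkar1a shown holds the only full cyclic AMP response element found in the windows read here. No window of Crem or Adora2a was read. Of the 4 genes that did not overlap and were tested, Prkar1a differed least between the tissues. The stretch lies at chr11:109650850-109650948, plus strand (GRCm38.p6), with the element TGACGTCA in capitals, beginning 49 bases before a listed start site.
Prkar1a: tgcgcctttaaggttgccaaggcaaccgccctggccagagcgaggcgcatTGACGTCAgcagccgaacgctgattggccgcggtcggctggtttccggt
RefSeq lists 6 start sites for this gene, and the element lies in the windows of 2 of them.

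Among proteins that anchor the kinase, ezrin (Ezr), which also links the membrane to actin, was higher in skin. It stood at 1573 ± 568 against 574 ± 166 CPM (1.46 ± 0.31 as log2 fold change with SE; adjusted p = 0.0473 in edgeR), with no overlap. In the fits without 1 library its adjusted p ran from 0.0368 to 0.115, and it was called only without skin replicate 4. Akap13 went the other way without a call, with 149 ± 59.5 CPM in skin against 310.0 ± 104 CPM in spleen and no overlap. Of 6 anchoring genes tested, 1 was higher and 0 were lower, beside 1.85% and 3.58% of all genes tested. Their median log2 fold change was 0.28. DESeq2 called 1 higher and 0 lower, limma-voom 2 and 0, and edgeR 1 and 1 at an unadjusted p under 0.05. Rap1b, a GTPase switched on by the kinase-independent cyclic AMP sensor EPAC, had 1394 ± 411 CPM in skin and 967 ± 106 CPM in spleen. Of the 2 tested genes of that branch 0 were called, beside 5.43% of all genes tested. DESeq2 and limma-voom also called 0, and edgeR had 1 higher at an unadjusted p under 0.05. Rapgef3, which encodes a form of that sensor, had no count.

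Crem, the cyclic AMP response element modulator, showed the widest gap among those of the 9 genes with a count in both tissues. Its counts do not separate activator forms from the short repressor. It stood at 4690.3, 5039.7, 3474 and 4434 CPM in skin replicates 1 to 4. In spleen replicates 1 to 4 it stood at 0, 19.8, 0.143 and 22.0 CPM, the value of replicate 3 being 1 count. The skin libraries lay within 1.45-fold of each other, and no spleen library came near them. The means of 4409.6 ± 671 and 10.5 ± 12.1 CPM (SD, n = 4 each) differed 420.4-fold, with a log2 fold change of 8.72 ± 1.81 (SE). Crem took 0.313% to 0.473% of all counts in a skin library and at most 0.00211% in a spleen library. Of 136 genes with a skin mean of 1000 to 5000 CPM, 0 had no count in all 4 spleen libraries. Spleen replicate 4, in which Fos and Junb were high, had 22.0 CPM of Crem, close to the 19.8 CPM of replicate 2. Without it the spleen mean was 6.65 ± 11.4 CPM (n = 3). The call was kept without spleen replicate 1 and lost in the other 7 fits without 1 library, although the log2 fold change stayed between 8.30 and 9.37 in all 8.

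The other CREB family genes and their coactivators did not show such a gap. Of 10 tested, 0 were called higher and 1 lower, beside 1.85% and 3.58% of all genes tested. DESeq2 and limma-voom each called 0 higher and 1 lower, and edgeR had 0 higher and 1 lower at an unadjusted p under 0.05. The median log2 fold change was 0.75. Creb1 stood at 0, 0, 78.2 and 59.2 CPM in skin and 63.8 to 166 CPM in spleen, and its close relative Atf1 at 0 to 176 and 1.37 to 63.9 CPM. Crtc1, a coactivator, was the gene called lower, with no count in skin and 1.78 to 17.5 CPM in spleen (edgeR adjusted p = 0.0473). In the fits without 1 library its adjusted p ran from 0.0804 to 0.137, and none called it. With no count in skin, Crtc1 could only come out lower, and its fitted fold depends on the prior count. Its spleen level of 8.52 ± 6.60 CPM (n = 4) lies where zeros in skin are common, so these zeros set no lower bound on the fold. Crtc2, the coactivator of the same family, stood at 125 ± 52.8 and 71.4 ± 79.8 CPM with overlap.

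Pde4b and Pde4d encode phosphodiesterases that break down cyclic AMP and that cyclic AMP itself induces. Pde4b stood at 260.2, 261, 143 and 630.2 CPM in skin replicates 1 to 4 and at 3.21, 83.9, 169.9 and 157 CPM in spleen. The skin mean was higher, but skin replicate 3 lay below spleen replicates 3 and 4, and the log2 fold change was 1.65 ± 0.97 (SE). Pde4d stood at 18.5, 43.2, 14.98 and 209.8 CPM in skin and at 32.2, 1.48, 12.4 and 0 CPM in spleen. Its values overlapped, and its log2 fold change was 2.63 ± 2.06 (SE), or 1.10 to 3.94 in the fits without 1 library. Without skin replicate 4 the means were 25.6 ± 15.4 (n = 3) and 11.5 ± 14.9 CPM (n = 4). Skin replicate 4 had the highest Calca, Pde4b and Pde4d of the 8 libraries, no Ramp1, and neither the highest nor the lowest Crem of the skin libraries. Neither phosphodiesterase was called in any of the 8 fits without 1 library.

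One of the 4 start sites listed for Pde4b has the core letters 34 bases before it, on the opposite strand (CGTCA), and is shown beside Calca for comparison. The stretch is chr4:102421471-102421554, plus strand (GRCm38.p6).
Pde4b: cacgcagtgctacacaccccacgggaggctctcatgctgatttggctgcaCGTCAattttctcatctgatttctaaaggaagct
Over the 7 of the 9 genes with windows read here, 6 of 15 windows (40%) held the core letters and 2 (13.3%) the full element. No window of Crem or Adora2a was read, so nothing is said of the element in these genes. Among the 6387 windows of genes tested in the fit, 33.8% held the core letters and 3.24% the full element, so the share for the core letters is near that of tested genes. In the window of Ramp1 the core letters lie 10 bases after the start. The windows of Calcrl, Pde4d and Ptger4 held neither.

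Of the 14 other phosphodiesterases listed, 10 had a count, 2 were tested and neither was called, beside 5.43% of all genes tested. DESeq2 and limma-voom called 0, and 0 had an unadjusted p under 0.05 in edgeR. Pde3b stood at 57.2 to 530.2 CPM in skin and 140 to 322 CPM in spleen, and Pde7a at 43.1 to 72.5 and 0 to 85.8 CPM. Pde2a had no count in skin and 0, 350.2, 96.5 and 142 CPM in spleen replicates 1 to 4.

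Transcripts that cyclic AMP is known to induce stood mostly higher in skin, though many other stimuli induce them too. Besides Crem, Pde4b and Pde4d, 14 of 18 listed genes were tested. All 14 fitted log2 fold changes were above 0, with a median of 3.26 beside -0.29 over all genes tested. The filter admits a gene through 1 tissue alone, so a gene without a count in spleen, as Nr4a2, could only come out positive. This list was also chosen with earlier results known, so the shared sign is a description only. Skin lay above spleen without overlap in 7, and 2 were called higher, beside 6.11% and 1.85% of all genes tested. The 2 were Nr4a2, an orphan nuclear receptor, and Rgs2, which restrains G protein signalling, and both were called in every fit without 1 library. Nr4a2 stood at 205 to 1269 CPM in skin and had no count in spleen. Its skin mean was 1539-fold the spleen floor of 3 counts per library, which allows for counting error alone. Its adjusted p in edgeR was 0.00512, and 0.00938 to 0.021 in the fits without 1 library. Rgs2 stood at 5280.0 to 5814 CPM in skin and 52.6 to 239 CPM in spleen (5.55 ± 0.48 as log2 fold change with SE; adjusted p = 0.00128 in edgeR, and 9.8e-05 to 0.00994). DESeq2 called 6 higher, beside 295 of all genes tested, and limma-voom 2, beside 209. Rgs2 was not among the genes called by limma-voom (adjusted p = 0.0521 in limma-voom). Nr4a1, a relative of Nr4a2, stood at 685 to 2226 CPM in skin and 0 to 134 CPM in spleen and was not called.

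Several calls in this list depended on spleen replicate 4. Junb stood at 156 to 236 CPM in spleen replicates 1 to 3 and at 3048 CPM in replicate 4, against 4689 to 8268 CPM in skin. Without that library 8 of the list were called higher, among them Junb (edgeR adjusted p = 0.000308), Fos (0.000398), Fosl2 (0.0109) and Nfil3 (0.0168). Their adjusted p with all 8 libraries was 0.223, 0.974, 0.128 and 0.32. In spleen replicates 1 to 3 Fosl2 and Nfil3 had no count and Fos at most 1. Without replicate 4 the fitted folds of these 3 are therefore set by the prior count and are no measure of size. Fosl2 and Nfil3 could then only come out positive. In spleen replicate 4 Fos stood at 950 CPM, Fosl2 at 5.95 CPM and Nfil3 at 22.6 CPM. Crem lay within 22.0 CPM in all 4 spleen libraries, replicate 4 included. Of the 122 further pathway genes in all lists, 53 were tested, 6 called higher and 1 lower, beside 1.85% and 3.58% of all genes tested. Among those called, Crtc1 had no count in skin and Nr4a2 none in spleen, so their directions were fixed. Without spleen replicate 4, 9 of the further pathway genes were higher and 0 lower, beside 64 and 20 of all 7052 genes tested in that fit.

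**Figure D4:**
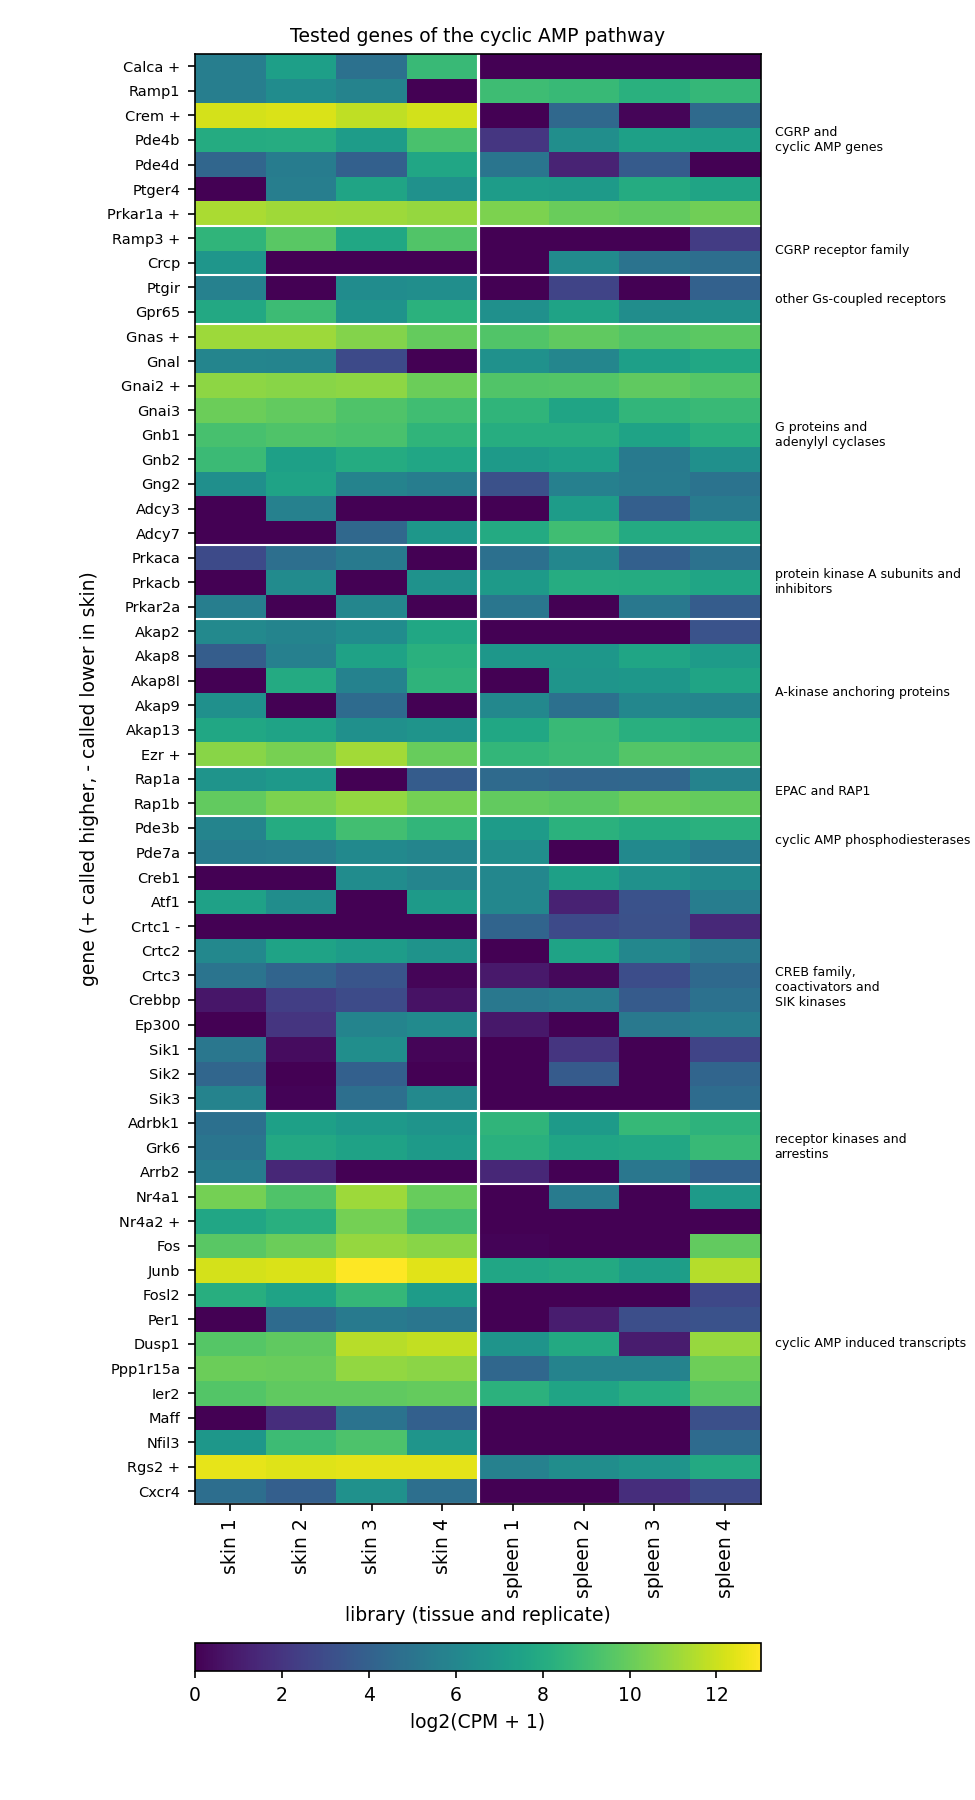
Level of tested genes of the cyclic AMP pathway as log2(CPM + 1) (colour scale) in each library (columns; skin left, spleen right of the white line), grouped by role (rows; each gene drawn once). A plus marks genes called higher and a minus genes called lower in skin by edgeR at an adjusted p under 0.05. Crem and Rgs2 are high in all 4 skin libraries and low in all 4 spleen libraries, while Junb, Fos, Dusp1 and Ppp1r15a are also high in spleen replicate 4.

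Kinases and arrestins that shut receptors off were not called. Adrbk1, a G protein-coupled receptor kinase, had 108 ± 59.3 CPM in skin against 315 ± 125 CPM in spleen, and Grk6 had 145 ± 84.2 and 290.4 ± 109 CPM. Both overlapped. The 3 tested genes of this list had a median log2 fold change of -0.998, and 0 were called, beside 5.43% of all genes tested. DESeq2 and limma-voom called 0 of them, and edgeR had 0 higher and 1 lower at an unadjusted p under 0.05.

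Genes nearest in pattern were found by the root mean square difference of log2(CPM + 1) over the 8 libraries, which also compares level. Nearest to Crem were Lmna at 1.64, Nr4a1 at 1.74 and Ccr8 at 2.08, so that no tested gene lay close to it by this measure. Low spleen values weigh in it, and Crem stood there at 0 to 22.0 CPM. The skin range of Crem, 3474 to 5040 CPM, overlapped that of Lmna. Lmna, the lamin of the nuclear envelope, stood at 3183 to 4946 CPM in skin and 0 to 8.18 CPM in spleen. Nearest to Calca were Gabarapl1 at 0.97, Spsb1 at 1.10 and Tmem65 at 1.162, and nearest to Ramp1 were Rab11b and Anapc5, both at 0.74, and Sept6 at 0.83. Prkar1a had closer neighbours, Gm9786 at 0.22, H3f3a at 0.31 and Arpc2 at 0.32. Those of Ptger4 were Inpp5b at 0.43, Snd1 at 0.44 and Chfr at 0.48, and those of Pde4b were Ddx6 at 0.82, Phip at 0.87 and Vgll4 at 0.93. Pde4d had none nearer than Hist1h2bc at 1.52, followed by Zc3h12a at 1.59 and Rab35 at 1.62.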

How the data were processed

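Libraries were prepared from total RNA with SMART-Seq v4, a kit that does not mark strand, and sequenced as paired reads of 75 bp on a NextSeq 500, per the labels' protocols. The authors deposited 1 table of expected counts, estimated per gene by RSEM, per the submitters' processing notes, which also name FastQC, DESeq2 1.16.1 and build mm9 without role or order. Aligner, annotation and filters: not given in the sources used here. Between 12.3% and 19.4% of values in a library were not whole (tolerance 0.001).

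Columns were matched to libraries by the labels' descriptions and 0 columns were unused. Counts were rounded. Genes were tested in R 4.3.3 with edgeR 4.0.16 (filterByExpr, TMM, robust quasi-likelihood fit on tissue, Benjamini-Hochberg adjusted p under 0.05 over 6920 genes), which called 128 higher and 248 lower in skin. CPM use TMM-scaled sizes of tested genes. The SE is the log2 fold change divided by the square root of F. The fit was tested on simulated counts. No pair of libraries of 1 tissue agreed within sampling noise (smallest chi-square per degree of freedom 112). Alternatives used DESeq2 1.42.0 and limma 3.58.1, among others.

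The 9 genes, the 11 pathway lists and the 15 marker lists (234 of 243 symbols matched, some by an older symbol) were chosen with earlier results of these data known. Named genes were the 9; list genes called, at most 3 a list and direction; the 3 others with the highest mean in a list; and the 3 nearest in pattern to each of the 9 with a mean of at least 20 CPM. Other genes were named for their role or after their values were seen. Promoter windows come from RefSeq, GRCm38.p6. A result for 1 of the listed receptors is not reported here.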

Additional observations from a re-analysis of the deposited data

Results flagged for a closer look

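Of 16 groups of 4 libraries (9 genes in 2 tissues, without the 2 that stood at 0 throughout), 2 held a library whose gap to the nearest other exceeded Dixon's 95% critical value as a share of the group's range. For normally spread values chance gives this in about 1 of 20 groups, a rate that does not hold for groups with many zeros. Pde4d stood at 209.8 CPM in skin replicate 4 against 14.98 to 43.2 CPM in skin replicates 1 to 3. Calcrl stood at 10.9 CPM in skin replicate 3 and had no count in skin replicates 1, 2 and 4. A gene counted in only 1 library of a group is flagged at any level above the floor, so nothing is read from the Calcrl flag.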

How the results depend on the processing

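No fold change reversed: over 259 comparisons of 14 genes (the 7 tested of the 9 and the 7 called pathway genes) with another setting, 181 kept their side of the threshold, 77 lost and 1 gained a call. For the 9 genes, the count called higher (3) was 0 with the replicate block, 1 without the 50 most abundant genes, which include Crem, and 0 to 2 without 1 library; the count called lower (0) was 0 to 1. Crem was also not called without a filter or with limma-voom, nor Rgs2 with limma-voom. Over all genes, 128 higher became 295 with DESeq2, 209 with limma-voom, 36 with the block, 56 without the 50 most abundant genes and 47 to 102 without 1 library. The 248 lower became 447, 519, 14, 48 and 17 to 111 in the same order, 48 with no filter and 42 among genes with a count in 3 libraries of each tissue. The 6 other pathway genes called higher became 12 with DESeq2, 2 with the block, 2 without the 50 most abundant genes, 3 with that detection filter and 2 to 9 without 1 library. The 1 called lower became 0 with the block, without the 50 most abundant genes, with no filter, with 5 CPM in 4 libraries, with the detection filter and in each fit without 1 library. The cause was not tested. The median log2 fold change of all genes tested, -0.29, was -0.44 with scaling by library totals, -2.06 with limma-voom, -0.99 with the block, -0.70 with no filter and 0.02 with the detection filter. The replicate numbers share only a number: deviations of same-numbered libraries correlated at 0.00175 to 0.0106, others at -0.027 to 0.0435, and not every library correlated best with its own number. Calcrl, Adora2a and Crtc1 lie at or below 20 CPM on average, and at 10 to 20 CPM 54.9% to 63.2% of genes had no count in a skin library.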
